A study of Mus musculus with 5 samples.

Results

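Flattop, encoded by Cfap126, and 9 core genes of planar cell polarity were followed on arrays of sorted mouse pancreatic islet cells. The 10 genes were taken by symbol, namely Cfap126, the Dishevelled genes Dvl1, Dvl2 and Dvl3, the Frizzled receptors Fzd3 and Fzd6, Vangl1 and Vangl2, and the atypical cadherins Celsr2 and Celsr3. All 10 were found among the 19938 genes measured, each through a single probe set. The study hybridised 5 arrays, each with RNA of a pool of islet cells separated by flow cytometry, of which 3 held Flattop-positive and 2 Flattop-negative cells. Both fractions came from untreated C57BL/6 mice of 8 to 12 weeks, with 4 to 6 mice in a pool and sex not determined. All donors carried the same genotype, heterozygous at Flattop and written FVR/+ in the labels, so both fractions hold 1 modified allele, and no array of mice without it was analysed here. What the allele carries, and how positive cells were told from negative ones, is not stated in the labels used here.

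Planar cell polarity is the coordinated orientation of cells within the plane of a tissue. Its core proteins sort to opposite sides of each cell: Frizzled receptors with Dishevelled on one side, Vangl with Prickle on the other, and Celsr cadherins on both sides of the contact. Dishevelled passes the signal to the actin cytoskeleton, and also serves the canonical Wnt pathway. Flattop acts downstream of the core proteins in ciliated cells, where it takes part in the docking and positioning of basal bodies. The series is titled for proliferating and mature β-cells, and the comparison asks how the Flattop-positive and Flattop-negative fractions of islet cells differ.

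The 250 bases before the annotated start are shown for Cfap126, the gene the sort is named for, and for the 3 Dishevelled genes, because Dvl3 had the largest difference of the 10 genes while Dvl1 and Dvl2 overlapped between fractions. They are RefSeq sequence of GRCm38.p6, plus strand, 5′ to 3′, at chr1:171113736-171113985 (the most upstream of 3 annotated Cfap126 starts), chr4:155847152-155847401, chr11:70000342-70000591 and chr16:20516736-20516985. Capitals mark 3 motifs, namely GGGCGG of the GC box, the CCAAT box, and GTTGCC, a partial X-box as bound by RFX factors, each searched on both strands, where neighbouring motifs may adjoin or overlap.
Cfap126: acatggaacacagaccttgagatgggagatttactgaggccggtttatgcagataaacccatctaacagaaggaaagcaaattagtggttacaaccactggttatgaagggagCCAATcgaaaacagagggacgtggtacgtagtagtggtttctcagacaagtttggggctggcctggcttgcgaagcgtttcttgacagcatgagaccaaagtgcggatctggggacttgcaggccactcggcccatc
Dvl1: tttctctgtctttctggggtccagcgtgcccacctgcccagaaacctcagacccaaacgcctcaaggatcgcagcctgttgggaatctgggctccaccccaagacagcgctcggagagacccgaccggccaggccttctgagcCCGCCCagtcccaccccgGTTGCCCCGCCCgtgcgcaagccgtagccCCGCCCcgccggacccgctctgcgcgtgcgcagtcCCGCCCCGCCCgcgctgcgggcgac
Dvl2: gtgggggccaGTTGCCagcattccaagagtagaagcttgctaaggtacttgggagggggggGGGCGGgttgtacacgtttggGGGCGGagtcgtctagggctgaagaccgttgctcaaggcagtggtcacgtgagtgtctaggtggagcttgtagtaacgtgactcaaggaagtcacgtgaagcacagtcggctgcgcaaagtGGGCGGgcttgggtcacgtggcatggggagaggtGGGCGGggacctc
Dvl3: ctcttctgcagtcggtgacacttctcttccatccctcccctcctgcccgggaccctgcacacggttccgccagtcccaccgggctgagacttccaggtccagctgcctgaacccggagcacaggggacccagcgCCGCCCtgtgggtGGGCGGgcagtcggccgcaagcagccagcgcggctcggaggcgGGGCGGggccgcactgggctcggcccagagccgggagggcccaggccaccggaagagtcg

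The Cfap126 window held 1 CCAAT box and 0 GC boxes, at 50.0% G and C bases and 8 CpG dinucleotides. The Dvl1, Dvl2 and Dvl3 windows held 5, 4 and 3 GC boxes and no CCAAT box, with 71.2%, 60.8% and 72.8% G and C bases. The partial X-box stood in the Dvl1 and Dvl2 windows and not in that of Dvl3. Across 32851 windows of the same length, 32.7% held a GC box, 33.8% a CCAAT box and 10.4% the partial X-box, and the median G and C content was 52.4%. The letters TGTTTAC of forkhead factors and CTTTGAT of TCF/LEF factors, in 3.17% and 3.21% of all windows, were in 0 of the windows of the 7 genes that had one in the table. The GC-rich windows thus belonged to all 3 Dishevelled genes, whether or not their values separated the fractions, and the windows of Vangl2 and Celsr2, which were dimmer genes, had 73.6% and 75.2%.

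Values are log2 signals per probe set. The 95th percentile of 1027 olfactory receptor genes, which are not expected in islet cells, was taken as a floor and lay at 4.29 to 4.45 in the Flattop-positive fraction and at 4.75 and 4.86 in the Flattop-negative one. The label of islet cells was borne out by Ins2, Gcg and Chga, which encode insulin, glucagon and chromogranin A, with log2 signals of at least 12.37, 12.81 and 10.44 on every array. The Flattop-negative arrays stood apart from each other, at r = 0.846 across genes, and the Flattop-positive arrays correlated at 0.953 to 0.984. Pairs across the fractions correlated at 0.896 to 0.937, so each Flattop-negative array was closer to every Flattop-positive array than to the other Flattop-negative one. Flattop-negative replicate 1 was low in the somatostatin gene Sst (8.08, against 12.32 to 13.19 on the other arrays) and the pancreatic polypeptide gene Ppy (8.98, against 12.44 to 13.63). Flattop-negative replicate 2 had the highest summed signal of 9 immune markers (log2 9.99, against 7.76 to 8.50 elsewhere), carried by the lysozyme gene Lyz2 (9.41, against 3.36 to 4.58), while C1qa was higher on all 3 Flattop-positive arrays. It was also the highest array for each of 10 stellate markers (log2 summed signal 9.63, against 7.76 to 8.22). In the model fitted over all genes, 0 of 19938 passed an adjusted p of 0.05 (limma), and 2760, or 13.8%, were at an unadjusted p under 0.05.

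Cfap126 (probe set 10351517, chromosome 1) had log2 signals of 6.07, 6.07 and 6.24 on the Flattop-positive arrays, against 5.52 and 5.44 on the Flattop-negative arrays. The fractions did not overlap, and the gap between the nearest arrays, 0.55, was wider than the range within either fraction. The difference was 0.64 ± 0.18 (SE), a 1.56-fold higher level, with a 95% confidence interval of 0.19 to 1.1 and adjusted p = 0.274 in limma over all genes. Transcript of the gene was thus above the floor on all 5 arrays, by 0.58 to 1.79, in Flattop-negative as well as Flattop-positive cells. The 3503 genes of similar mean signal, between 5 and 6, had a median difference of -0.01 with quartiles of -0.31 and 0.29. With single arrays left out the difference of Cfap126 stayed between 0.59 and 0.68. It was lowest without Flattop-positive replicate 3, where its unadjusted p was 0.0524 (limma). In bulk samples like these, fewer cells of a type and less RNA per cell cannot be told apart.

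**Figure D1:**
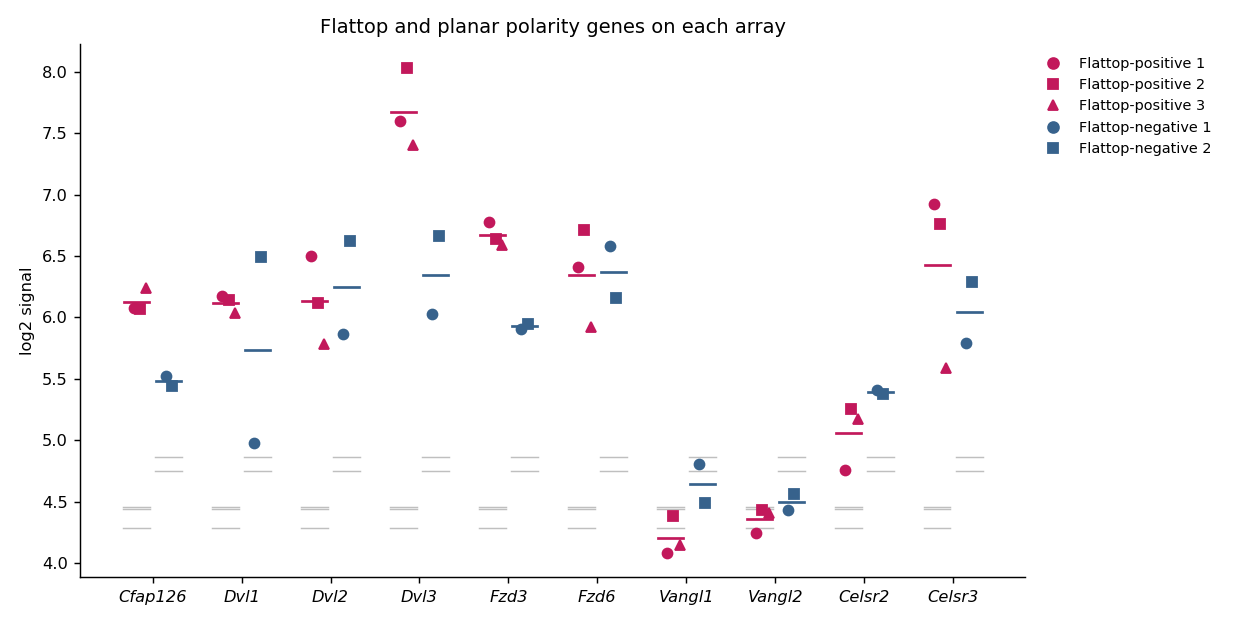
The log2 signal of each of the 10 genes on every array is plotted, with Flattop-positive arrays left of Flattop-negative arrays, coloured short lines at the group means and thin grey lines at the floor of each array. The fractions are separate for Cfap126, Dvl3, Fzd3, Vangl1 and Celsr2, and Vangl1 and Vangl2 lie at the floor.

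The Dishevelled genes, cytoplasmic proteins that relay the signal of Frizzled receptors, did not share a pattern. Dvl3 (probe set 10434366, chromosome 16) had 7.60, 8.03 and 7.40 in Flattop-positive cells, against 6.03 and 6.67 in Flattop-negative cells. All 3 Flattop-positive arrays were above both Flattop-negative arrays. Its difference of 1.33 ± 0.30 (SE), 2.51-fold higher in Flattop-positive cells with an interval of 0.57 to 2.08, was the largest of the 10 genes and had adjusted p = 0.228. It was above the upper quartile of 0.76 for the 2240 genes with a mean signal between 7 and 8, whose median was 0.34. Over 13 alternative fits of the same arrays its difference was 0.93 to 1.64. Dvl3 was at an unadjusted p under 0.05 (limma) in each fit that kept both Flattop-negative arrays. In those fits 6.01% to 14.7% of all genes tested were under that threshold.

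Dvl1 (probe set 10511190, chromosome 4) had 6.17, 6.14 and 6.04 in Flattop-positive cells, against 4.97 and 6.49 in Flattop-negative cells. The Flattop-positive arrays lay within 0.14 of each other and between the Flattop-negative arrays, which were 1.52 apart. The difference of 0.38 (interval -0.75 to 1.51; adjusted p = 0.699) rested on single arrays, being 1.14 without Flattop-negative replicate 2 and -0.38 without Flattop-negative replicate 1. Dvl2 (probe set 10377704, chromosome 11) had 6.50, 6.12 and 5.79 in Flattop-positive cells, against 5.87 and 6.62 in Flattop-negative cells. The fractions overlapped, with a difference of -0.11 and an interval of -0.945 to 0.72 (adjusted p = 0.890). All 3 Dishevelled genes were lower on Flattop-negative replicate 1 than on Flattop-negative replicate 2, by 1.52 for Dvl1, 0.76 for Dvl2 and 0.63 for Dvl3. The summed signal of 6 pan-endocrine markers was also lower on replicate 1 (log2 12.71) than on replicate 2 (14.00), although Neurod1 and Scg2 were higher on replicate 1, and their part in the Dishevelled values was not tested.

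The ratio of Dvl3 to its paralogues within an array shows whether their differences were unequal, while its absolute level between probe sets has no meaning. The log2 ratio of Dvl3 to Dvl2 was 1.1, 1.91 and 1.62 on the Flattop-positive arrays, against 0.17 and 0.04 on the Flattop-negative arrays. That of Dvl3 to Dvl1 was 1.42, 1.89 and 1.37, against 1.06 and 0.17 on the Flattop-negative arrays. Both ratios were separate between the fractions, by 1.44 and 0.95 in the means. For Dvl3 to Dvl1 the nearest arrays, at 1.37 and 1.06, were closer than the Flattop-negative arrays were to each other. An exact permutation test of 3 against 2 arrays, made two-sided by doubling the smaller tail, cannot go below 0.2. Both ratios gave 0.2 (0.4 after Benjamini-Hochberg adjustment over the 6 paralogue pairs compared). Any ratio that separates the fractions gives this value, so the test adds nothing to the separation. Of the 6 pairs, Dvl1 with Dvl2, Vangl1 with Vangl2 and Celsr3 with Celsr2 overlapped. How often ratios of other gene pairs separate the fractions was not counted.

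Among the receptors, Fzd3 separated the fractions and Fzd6 did not. Fzd3 (probe set 10420846, chromosome 14) had 6.77, 6.64 and 6.59 in Flattop-positive cells, against 5.91 and 5.95 in Flattop-negative cells. The fractions were 0.65 apart at their nearest arrays, with SDs of 0.10 (n = 3) and 0.03 (n = 2). The difference was 0.74 ± 0.18 (SE), 1.67-fold higher in Flattop-positive cells, with an interval of 0.29 to 1.2 and adjusted p = 0.247. Genes of similar mean signal (6 to 7, 3103 genes) had a median of 0.30 and an upper quartile of 0.63. The difference was 0.69 to 0.78 with single arrays left out and 0.46 on repeated quantile normalisation as after cyclic loess.

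Fzd6 (probe set 10423825, chromosome 15) had 6.41, 6.71 and 5.92 in Flattop-positive cells, against 6.58 and 6.16 in Flattop-negative cells. The Flattop-negative values lay inside the Flattop-positive range. The difference was -0.02, with an interval of -0.78 to 0.74 (adjusted p = 0.980). The log2 ratio of Fzd3 to Fzd6 within arrays was 0.36, -0.08 and 0.67 in Flattop-positive cells, against -0.67 and -0.21 in Flattop-negative cells, without overlap. The nearest arrays, at -0.08 and -0.21, were less far apart than the range within either fraction. The same exact permutation test gave p = 0.2, its smallest possible value.

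Vangl1 and Vangl2, membrane proteins that oppose Frizzled and Dishevelled within the cell, lay at the floor. Vangl1 (probe set 10500736, chromosome 3) had 4.09, 4.38 and 4.15 in Flattop-positive cells, against 4.8 and 4.49 in Flattop-negative cells. All 3 Flattop-positive arrays were below both Flattop-negative arrays, but only Flattop-negative replicate 1 exceeded its floor, by 0.06. Its difference was -0.44, with an interval of -0.97 to 0.09 (adjusted p = 0.414). Olfactory receptor genes as a whole had a median difference of -0.27, with 937 of 1027 lower in Flattop-positive cells, so the floor itself moved in the same direction. Vangl2 (probe set 10360187, chromosome 1) had 4.25, 4.43 and 4.41 in Flattop-positive cells, against 4.43 and 4.57 in Flattop-negative cells, below the floor on all 5 arrays. Its difference of -0.14 (interval -0.60 to 0.33; adjusted p = 0.736) turned to 0.12 on repeated quantile normalisation and 0.14 after cyclic loess. No level of either gene can be read from these arrays.

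The Celsr cadherins, which bridge neighbouring cells, lay on opposite sides of 0. Celsr2 (probe set 10501319, chromosome 3) had 4.76, 5.25 and 5.18 in Flattop-positive cells, against 5.41 and 5.37 in Flattop-negative cells. The fractions did not overlap but were only 0.12 apart, less than the 0.50 range among Flattop-positive arrays. The difference was -0.33, with an interval of -0.90 to 0.24 (adjusted p = 0.527). Celsr3 (probe set 10589130, chromosome 9) had 6.93, 6.76 and 5.59 in Flattop-positive cells, against 5.79 and 6.29 in Flattop-negative cells. Flattop-positive replicate 3 was the lowest of the 5 arrays and the other Flattop-positive arrays the highest. The difference was 0.39 (interval -0.75 to 1.52; adjusted p = 0.699), and 0.80 without Flattop-positive replicate 3. It was 0.135 without either replicate 1 array, 0.22 without Flattop-positive replicate 2 and 0.64 without Flattop-negative replicate 2.

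**Figure D2:**
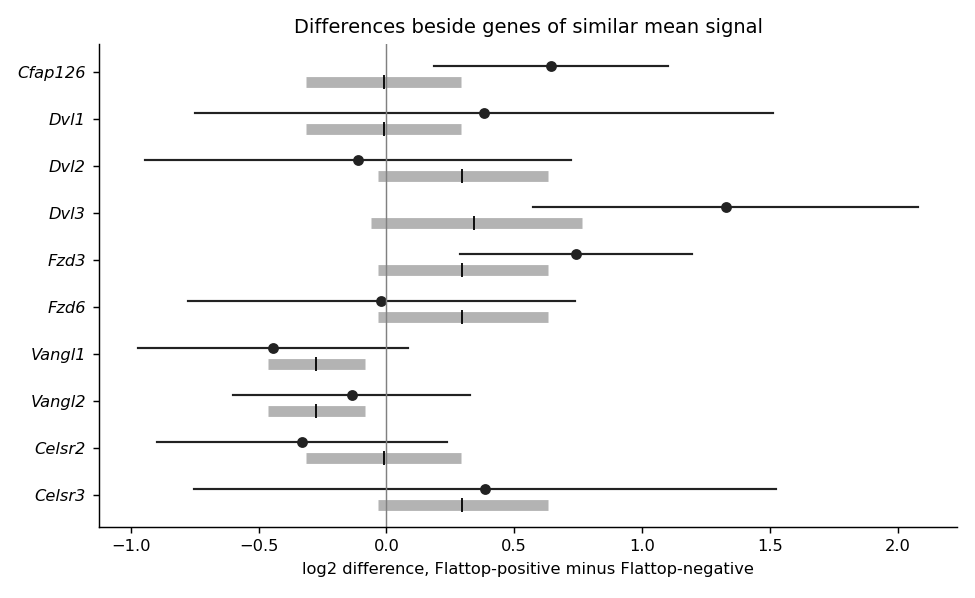
Points are log2 differences, Flattop-positive minus Flattop-negative, with 95% confidence intervals from limma, and grey bars span the quartiles of all genes in the same bin of mean signal, with a tick at their median. Intervals of Cfap126, Dvl3 and Fzd3 lie above 0, and the points of these 3 genes lie above the upper quartile of genes of similar signal. The point of Dvl1, whose interval spans 0, also lies above that quartile.

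Of the 10 genes, 0 passed an adjusted p of 0.05, as did 0.0% of all genes tested. Where both an unadjusted p below 0.05 and a 1.5-fold change were asked for, 3 of 10 were higher in Flattop-positive cells (Cfap126, Dvl3 and Fzd3), against 8.08% of all genes, and 0 of 10 were lower, against 3.74% (11.8% in either direction). Only Dvl3 met both conditions on repeated quantile normalisation and after cyclic loess, where Cfap126 and Fzd3 were under 1.5-fold, and with a replicate block, where their unadjusted p was 0.114 and 0.0551 (limma). Without overlap, 3 were higher, against 13.7% of all genes, and 2 lower (Vangl1 and Celsr2), against 21.0%, so that 5 of 10 separated the fractions, against 34.7% of all genes. Among genes of similar signal the share higher at the unadjusted threshold and 1.5-fold was 5.97% for Cfap126, 15.7% for Fzd3 and 20.9% for Dvl3. The median difference of the 10 genes was 0.18, and that of all genes -0.10, while the 9 genes besides Cfap126 had -0.02, with 4 higher and 5 lower. The core genes therefore gave no common direction.

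**Figure D3:**
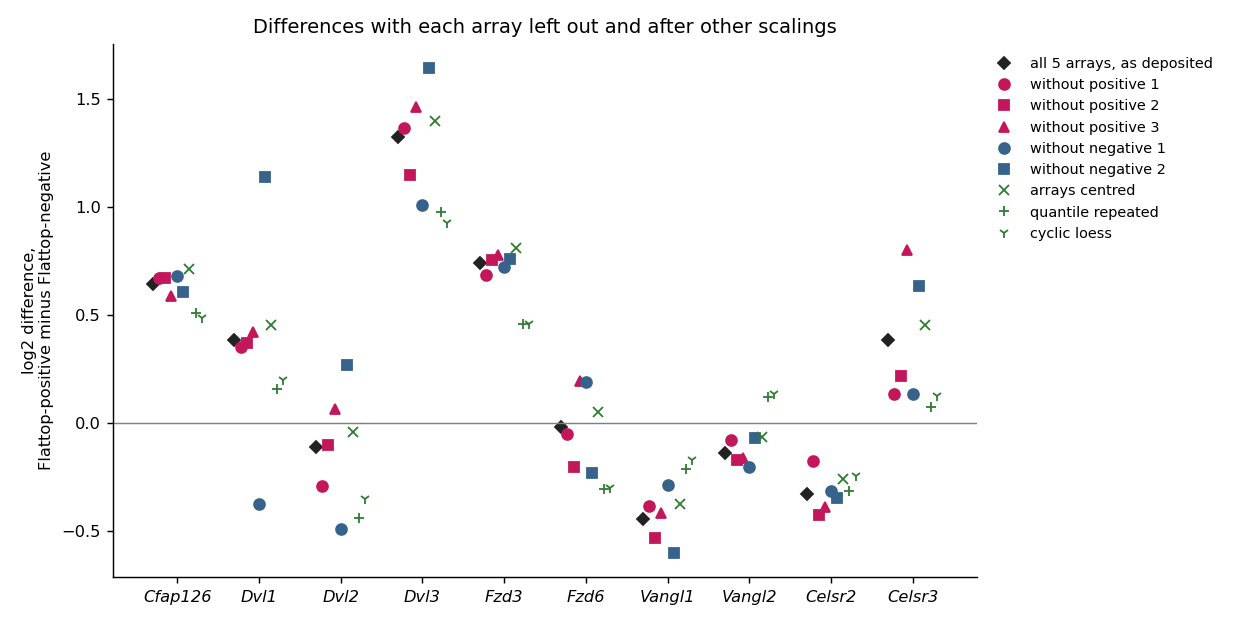
The log2 difference of each gene, Flattop-positive minus Flattop-negative, is plotted with all 5 arrays, with each array left out in turn, and after 3 other scalings of the values. Cfap126, Dvl3 and Fzd3 stay above 0 and Vangl1 and Celsr2 below 0 in all of them, and Dvl1 runs from -0.38 to 1.14.

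Most β-cell markers separated the fractions in the direction of Cfap126, Dvl3 and Fzd3. All 10 of the list (Ins2, Iapp, Slc2a2, G6pc2, Slc30a8, Pdx1, Nkx6-1, Mafa, Ucn3 and Glp1r) were higher in Flattop-positive cells, with a median difference of 1.23. Of these, 8 did not overlap, against 13.7% of all genes and 37.8% of genes with a mean signal of 8 or more, where 9 of the 10 lie. The hormone genes Ins2 and Iapp did overlap, with differences of only 0.18 and 0.095 (adjusted p = 0.767 and 0.825, limma). The log2 of their summed signal was 14.74, 14.53 and 14.80 on the Flattop-positive arrays, against 14.15 and 14.29 on the Flattop-negative arrays. Of 5 α-cell markers measured, 4 were lower, with a median of -0.36 that turned to 0.30 without Flattop-negative replicate 2. All 10 stellate markers were lower (median -0.56, and -0.24 without that array). Pdgfrb and Pdgfra of that list were below the floor throughout, and all genes with a mean signal between 4 and 5 had a median of -0.28. All 8 endothelial markers were lower too, with a median of -0.29 (-0.03 without that array) that is close to the -0.27 of olfactory receptor genes, and Cdh5, Kdr, Plvap and Esam were below the floor on every array. The part of cell composition in the 3 differences was not tested.

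The other genes of the pathway were taken from lists of 96 entries, of which 87 genes were measured. Of these, 0 passed an adjusted p of 0.05, 5 were higher (5.75%, against 8.08% of all genes) and 3 lower (3.45%, against 3.74%) at an unadjusted p under 0.05 and 1.5-fold, and the median was -0.13. Among 15 other core genes and modulators, 7 were higher and 8 lower. Csnk1d, a casein kinase that phosphorylates Dishevelled, had 8.19, 8.11 and 7.79 in Flattop-positive cells, against 6.85 and 7.54 in Flattop-negative cells (difference 0.83 ± 0.28 SE, adjusted p = 0.314). It was separate between the fractions, by 0.25 at the nearest arrays, and the difference was 0.49 without Flattop-negative replicate 1 and 0.38 after cyclic loess. Among genes with a mean signal between 7 and 8, 29.9% were higher without overlap, and the upper quartile of differences was 0.76. Ankrd6, the homologue of the Drosophila gene diego, had -0.58 (adjusted p = 0.335), and Prickle2, the partner of Vangl, -0.39 (adjusted p = 0.406). Both were below the floor on all 3 Flattop-positive arrays, Prickle2 on all 5.

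Of 12 Wnt ligands and receptors tied to planar polarity, 5 were higher and 7 lower. Wnt5b, a ligand of non-canonical signalling, had 5.17, 4.90 and 5.14 in Flattop-positive cells, against 5.84 and 6.26 in Flattop-negative cells. It lay opposite to Cfap126, with every Flattop-positive array below both Flattop-negative arrays by at least 0.68. The difference was -0.98 ± 0.22 (SE; adjusted p = 0.228), and -1.0 after cyclic loess. Gpc4, a glypican that binds Wnt proteins at the cell surface, had 8.36, 8.30 and 8.22 in Flattop-positive cells, against 7.67 and 7.45 in Flattop-negative cells. Its fractions were separate (0.73 ± 0.19 SE, adjusted p = 0.253), but the difference was 0.26 after cyclic loess. The upper quartile of differences was 0.76 for genes with a mean signal between 7 and 8, and 0.98 from 8 upwards. Wnt4, a ligand known in islets, had 0.71 ± 0.37 (SE, adjusted p = 0.445), with overlap. Averaging its 2 probe sets gave a difference of 1.14. Wnt5a was below the floor on all 5 arrays.

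Among 15 effectors measured, 9 were higher and 6 lower. Fuz, which acts with Intu and Wdpcp in building cilia, had 6.18, 6.19 and 6.37 in Flattop-positive cells, against 5.59 and 5.64 in Flattop-negative cells. The fractions were 0.55 apart, for a difference of 0.63 ± 0.18 (SE; adjusted p = 0.278). Among genes with a mean signal between 5 and 6, 13.7% were higher without overlap. Repeated quantile normalisation gave 0.45 for Fuz and cyclic loess 0.44, under 1.5-fold. Its partners Intu and Wdpcp had 0.33 and 0.28 with overlap (intervals -0.51 to 1.16 and -1.02 to 1.58). The GTPase gene Rhoa had 9.91, 9.57 and 9.92 in Flattop-positive cells, against 8.46 and 9.27 in Flattop-negative cells (0.94 ± 0.30 SE, adjusted p = 0.301). Leaving out Flattop-negative replicate 1 gave 0.53 for Rhoa, and cyclic loess 0.45. Genes with a mean signal of 8 or more, as Rhoa has, had an upper quartile of 0.98. The formin gene Daam1, whose product binds Dishevelled, lay the other way, with 8.65, 8.21 and 8.65 against 9.59 and 8.86 in Flattop-negative cells (-0.72 ± 0.30 SE, adjusted p = 0.374). Without Flattop-negative replicate 1 the Daam1 difference was -0.35, and without Flattop-negative replicate 2 it was -1.08, and after cyclic loess -1.21. Dlg3, a scaffold protein reported to bind Flattop, had -0.21 (interval -1.09 to 0.67).

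The Fat and Dachsous genes, a separate polarity system of large cadherins, were all lower in Flattop-positive cells (6 of 6 measured, median -0.19), with Fat2, Dchs1 and Fjx1 below the floor on every array. Over all genes 11802 of 19938 were lower, and those with a mean signal between 4 and 5 had a median of -0.28. Fat1 had 6.25, 6.05 and 6.70 in Flattop-positive cells, against 6.83 and 7.78 in Flattop-negative cells, without overlap (-0.97 ± 0.36 SE, adjusted p = 0.338). Flattop-negative replicate 2 held the highest Fat1 value, and without it the difference was -0.50. Dchs1 had -0.19 (adjusted p = 0.721) and Fjx1, a kinase of this system, -0.60 (adjusted p = 0.513), and both turned without Flattop-negative replicate 2, to 0.11 and 0.04. The median of the 6 genes was then 0.08.

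**Figure D4:**
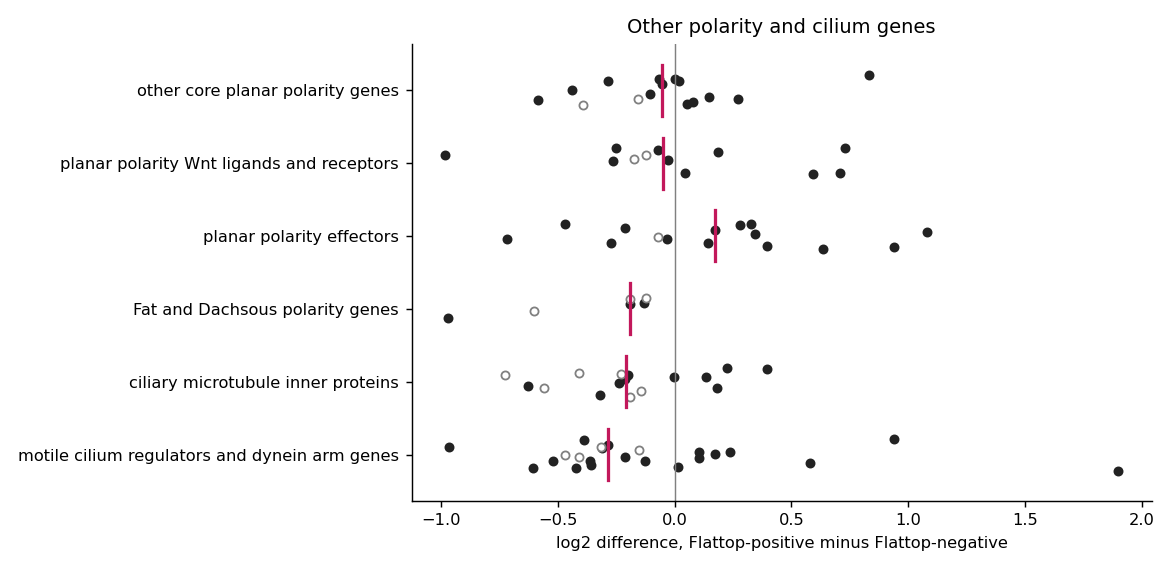
Each point is a gene of 6 lists of polarity and cilium genes at its log2 difference, Flattop-positive minus Flattop-negative, with vertical lines at the list medians and open points for genes below the floor on all 5 arrays. Medians run from -0.29 for motile cilium genes to 0.17 for effectors, and Rsph9 is the point at 1.9.

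Flattop belongs to the proteins inside the doublet microtubules of motile cilia, and most other genes of that kind were dim. Cfap20, Mns1, Efhc2 and Enkur were above the floor on all 5 arrays, and their fractions overlapped. Of 16 measured, 4 were higher and 12 lower in Flattop-positive cells, with a median of -0.21, and 6 were below the floor on all 5 arrays. These included Ribc2 (-0.73, adjusted p = 0.273), Tekt3 (-0.56, adjusted p = 0.341) and Cfap161 (-0.41, adjusted p = 0.439), the 3 with the smallest p of that list. Among 23 regulators and dynein or radial spoke genes, 8 were higher and 15 lower (median -0.29). For both lists, the background is 11802 of 19938 genes lower, and a median of -0.28 for genes with a mean signal between 4 and 5. Foxj1, the transcription factor of motile cilia, was below its floor on all 3 Flattop-positive arrays and 0.19 above it on Flattop-negative replicate 2. Rfx3, a regulator of ciliary genes that is also used in islet cells, had 7.51, 7.13 and 7.0 in Flattop-positive cells, against 7.67 and 7.32 in Flattop-negative cells, with overlap.

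Rsph9, a radial spoke protein, was the exception in size. It had 7.34, 6.93 and 6.90 in Flattop-positive cells, against 5.17 and 5.15 in Flattop-negative cells. The fractions were 1.73 apart and the difference was 1.9 ± 0.22 (SE), 3.73-fold higher in Flattop-positive cells, with adjusted p = 0.198. It stayed between 1.76 and 1.98 with single arrays left out. Its neighbours in function Rsph1 and Rsph4a overlapped between fractions, with differences of -0.31 and -0.52 (intervals -1.47 to 0.85 and -2.66 to 1.62). Dnah5 and Ccdc40, of the dynein arms and their docking ruler, had -0.47 and -0.39 (adjusted p = 0.369 and 0.435), Dnah5 below the floor on all 5 arrays.

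Likeness to Cfap126 was measured as the root mean square difference between log2 values, each centred on the gene's own mean, over the 5 arrays. Of 11519 named genes above the floor on at least 3 arrays, the nearest were Ubxn6 (0.038), Fuz (0.039), Tpst2 (0.042), Trpm5 (0.044) and Ptges2 (0.046). The filter can be passed through the Flattop-positive arrays alone, as it was by Ptges2, which was below the floor on both Flattop-negative arrays. Fuz was thus 2nd among these genes as well as a listed polarity effector, and Trpm5 encodes a cation channel of β-cells. Ubxn6 had 7.54, 7.58 and 7.71 in Flattop-positive cells, against 7.02 and 7.01 in Flattop-negative cells. Among the 9 core genes Fzd3 was the nearest, at 0.13 and rank 102, and Dvl3 was at 0.48 and rank 5742, with a wider spread within each fraction. With only 5 arrays in 2 fractions, any gene with a like gap and small spread ranks high, so likeness is a description only.

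**Figure D5:**
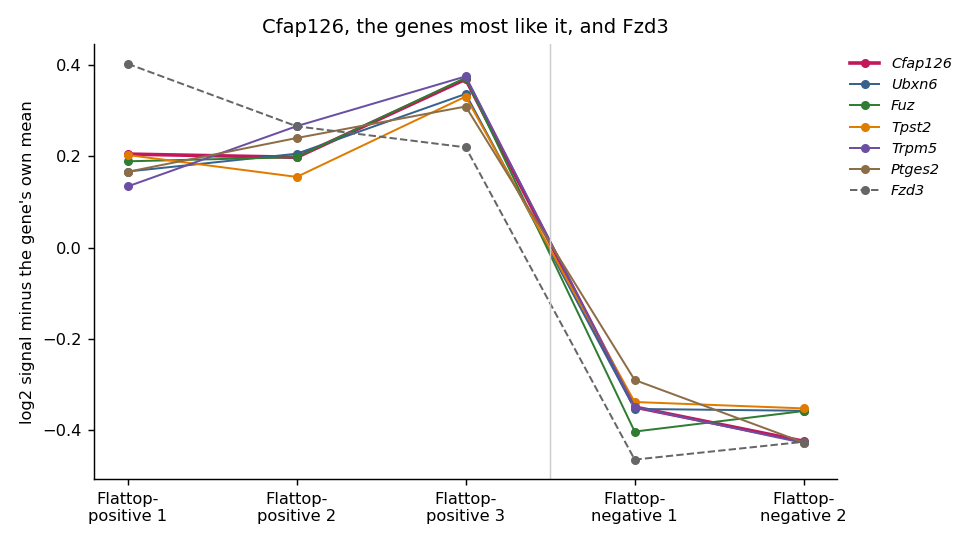
The log2 signal minus the gene's own mean is plotted over the 5 arrays for Cfap126, the 5 genes nearest to it and Fzd3. The 5 genes run close to Cfap126, with root mean square differences of 0.038 to 0.046, and Fzd3 is highest on Flattop-positive replicate 1, where Cfap126 is not.

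On chromosome 1 the next protein-coding gene after Cfap126 is Sdhc, a subunit of succinate dehydrogenase, and the gene before it is Fcgr3, an Fc receptor of immune cells; both were named for their position. Sdhc had 9.49, 9.37 and 9.40 in Flattop-positive cells, against 7.08 and 8.25 in Flattop-negative cells, without overlap (1.75 ± 0.37 SE, adjusted p = 0.218). Fcgr3 was below the floor on all 5 arrays.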

How the data were processed

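The authors deposited log2 signals for each probe set. Per the submitters' processing notes, these came from RMA as run in Expression Console (Affymetrix, 1.3.0.187). RMA subtracts background, normalises arrays and summarises probes. The deposited arrays still differed in median (5.04 to 5.23 over genes) and spread, so other scalings were tried. RNA came from the miRNeasy Micro kit and was amplified before labelling, per the labels' protocols. No genome build is stated in the labels. The platform annotation gave 1 symbol to 21789 of the 35556 probe sets and several to 1621, and the rest were unnamed here. The highest mean signal represented a gene with several, which left 19938 genes.

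Fractions were compared in limma 3.58.1 (R 4.3.3), with group as the only term, two-sided, Benjamini-Hochberg over all genes; p-values come from this fit unless an exact permutation test is named. Nothing says that pools of a fraction shared no animals, so p-values measure only the spread between these pools. The number of arrays limits the precision. Tested on simulated data, the fit returned the changes put in on average but called none of the smallest at the adjusted threshold. No scan dates or slides were given, so batches could not be examined. Tables used pandas 2.3.3 and scipy 1.17.1, plots matplotlib 3.10.9.

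The members and lists were chosen with earlier results of these data known. Genes named are the 10 members, the 3 with the smallest p in each pathway list, the 5 most like Cfap126 and 5 genes checking the label; others were chosen for their role or position or after their values were seen. Alternatives were other scalings, a filter on dim genes, other variance models, array weights, a replicate block, the mean of probe sets and each array left out.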

Additional observations from a re-analysis of the deposited data

How the results depend on the processing

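Over 13 alternatives the differences of Cfap126 (0.49 to 0.71), Dvl3 (0.93 to 1.64), Fzd3 (0.46 to 0.81) and Celsr2 (-0.43 to -0.18) kept their sign, as did Celsr3 (0.08 to 0.80) and, over the 12 that measured it, Vangl1. None of the 10 genes passed the adjusted threshold in any. Fzd6 turned to 0.05 with arrays centred, to 0.048 with array weights, and to 0.19 with the replicate block, which also turned Dvl2 to 0.063. Vangl2 turned to 0.12 on repeated quantile normalisation and 0.14 after cyclic loess, and both Vangl genes were left out with dim genes. With single arrays left out Dvl1 ran from -0.38 to 1.14, Dvl2 from -0.49 to 0.27 and Fzd6 from -0.23 to 0.19. The cause was not tested.

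Besides Cfap126, 2 members were past the unadjusted threshold and 1.5-fold, and 1 on repeated quantile normalisation, after cyclic loess and with the replicate block; with single arrays left out there were 2 to 4, the highest without Flattop-negative replicate 2. The median of the 10 genes was then -0.034 to 0.438, and the count of all genes past the adjusted threshold 0 to 434, with 434 without Flattop-negative replicate 2, where the lone remaining array is assumed to vary like the other fraction. The count in the other pathway lists, 8, was 3 with trend and robust variance and 4 to 19 with single arrays left out. Counts of all genes at an unadjusted p under 0.05 were 1198 to 5390. Arrays centred on their medians gave 1903 higher and 450 lower genes at the unadjusted threshold and 1.5-fold, cyclic loess 766 and 605, against 1610 and 746 as deposited. The median of all genes was -0.10 as deposited and -0.01 after cyclic loess.

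Replicate numbers are shared by the fractions, but the labels do not tie them to a litter or day. Deviations from the group means correlated at 0.18 for the replicates numbered 1 and -0.14 for those numbered 2. The deviations of the 2 Flattop-negative arrays are equal and opposite, so these values cannot decide whether replicates were paired. Flattop-positive replicate 3, which has no numbered partner, had 0.225 with Flattop-negative replicate 2. With the replicate block, which uses Flattop-positive replicate 3 for no difference, Cfap126 had 0.59 (unadjusted p = 0.114, a p of the limma fit), Dvl3 1.46 and Fzd3 0.78 (unadjusted p = 0.0551).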

Other observations

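The δ, PP and ε markers (6 genes) had a log2 summed signal of 13.94 to 14.54 on the Flattop-positive arrays, against 11.97 and 14.99 on the Flattop-negative arrays. Duct markers (5 measured) had 9.5 to 10.06 on the Flattop-positive arrays, against 7.68 and 9.22, a sum carried by the keratin gene Krt7 (difference 1.85 ± 0.53 SE, adjusted p = 0.275). The other duct genes overlapped between fractions, and the median of the list was 0.04. Acinar markers (8 measured) had a median of -0.58 and glial markers (4 measured) -0.25, against -0.27 for olfactory receptor genes. Without Flattop-negative replicate 2 these medians were -0.20 and -0.12. Only 1 marker of each list was above the floor on all 5 arrays, and the acinar one, Bhlha15, was higher by 1.27.

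Some cytoskeletal and polarity genes differed widely between the Flattop-negative arrays. Rock1, a kinase downstream of Rhoa, had 7.95, 8.03 and 7.81 in Flattop-positive cells, against 9.84 and 6.96 in Flattop-negative cells, so the Flattop-negative arrays enclosed all others. Pfn1, which encodes the actin-binding profilin, had 9.94, 9.92 and 9.60 in Flattop-positive cells, against 7.60 and 9.89. Scrib, a polarity scaffold, had 5.92, 5.93 and 5.86 in Flattop-positive cells, against 5.10 and 6.71. These genes were named after their values were seen, and their spread between Flattop-negative arrays exceeded any difference between fractions.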
